A study of Mus musculus with 6 samples.

Results

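The collagen chains measured here are the 44 mouse genes whose symbol is Col, a number, the letter a and a number, taken from the 56262 genes of the count table. All were kept, whatever their level, and they were grouped by the kind of structure they build: 11 fibrillar, 6 basement membrane, 8 beaded, 4 transmembrane, 9 fibril associated, 3 network, 2 multiplexin and 1 anchoring chain gene. RNA was sequenced from whole lung of 6 untreated mice at 8 weeks of age. The 3 R/R mice carried the substitutions K329R and K332R on both alleles of RBM47, an RNA-binding protein, introduced with CRISPR into the germline of C57BL/6 mice and hence present in every cell type. The 3 WT mice were littermates. Total counts ranged from 16815020 to 18071818 in R/R lungs and from 16501092 to 18141067 in WT lungs. Rbm47 itself was at 32.7, 33.5 and 34.1 CPM (counts scaled to the size of the library) in R/R lungs and at 28.8, 30.5 and 34.4 CPM in WT lungs (log2 fold change 0.10, adjusted p = 0.660, edgeR), and gene counts do not show the substituted codons. Markers of alveolar epithelium were present as the label lung implies, with 8 of 8 genes of the alveolar type 2 list tested and a summed level of 22781 to 31086 CPM per lung.

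Collagens are secreted or membrane proteins in which 3 chains wind into a triple helix. Fibrillar collagens give the lung its tensile strength, type IV chains form the sheet-like network of the basement membrane under endothelium and epithelium, and type VI chains form beaded filaments between the fibrils and the basement membrane. In the alveolus the basement membranes of epithelium and capillary are fused over much of the gas exchange surface, so their collagen lies directly in the air-blood barrier.

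Of the 44 genes, 35 had enough counts to be tested, and 29 of them had a negative and 6 a positive log2 fold change in R/R relative to WT. At an adjusted p of 0.05 (edgeR's quasi-likelihood test, adjusted over 17120 genes), 5 collagen genes were lower in R/R lungs, where 1.10% of all tested genes were lower, and all 5 encode type IV chains (Col4a1 to Col4a5). A single gene, Col28a1, was higher, where 0.648% of all tested genes were higher. Calls in either direction made up 1.75% of all tested genes. At an unadjusted p of 0.05 the count was 17 of 35, with 13 lower and 4 higher, against 14.2% of all tested genes. The R/R and WT lungs did not overlap for 14 collagen genes, against 18.7% of all tested genes, and in 12 of the 14 the R/R lungs lay below the WT lungs, against 9.50% of all tested genes. The median log2 fold change of the 35 genes was -0.20, with a range from -1.03 to 2.09, and that of all 17120 genes was 0.00.

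**Figure D1:**
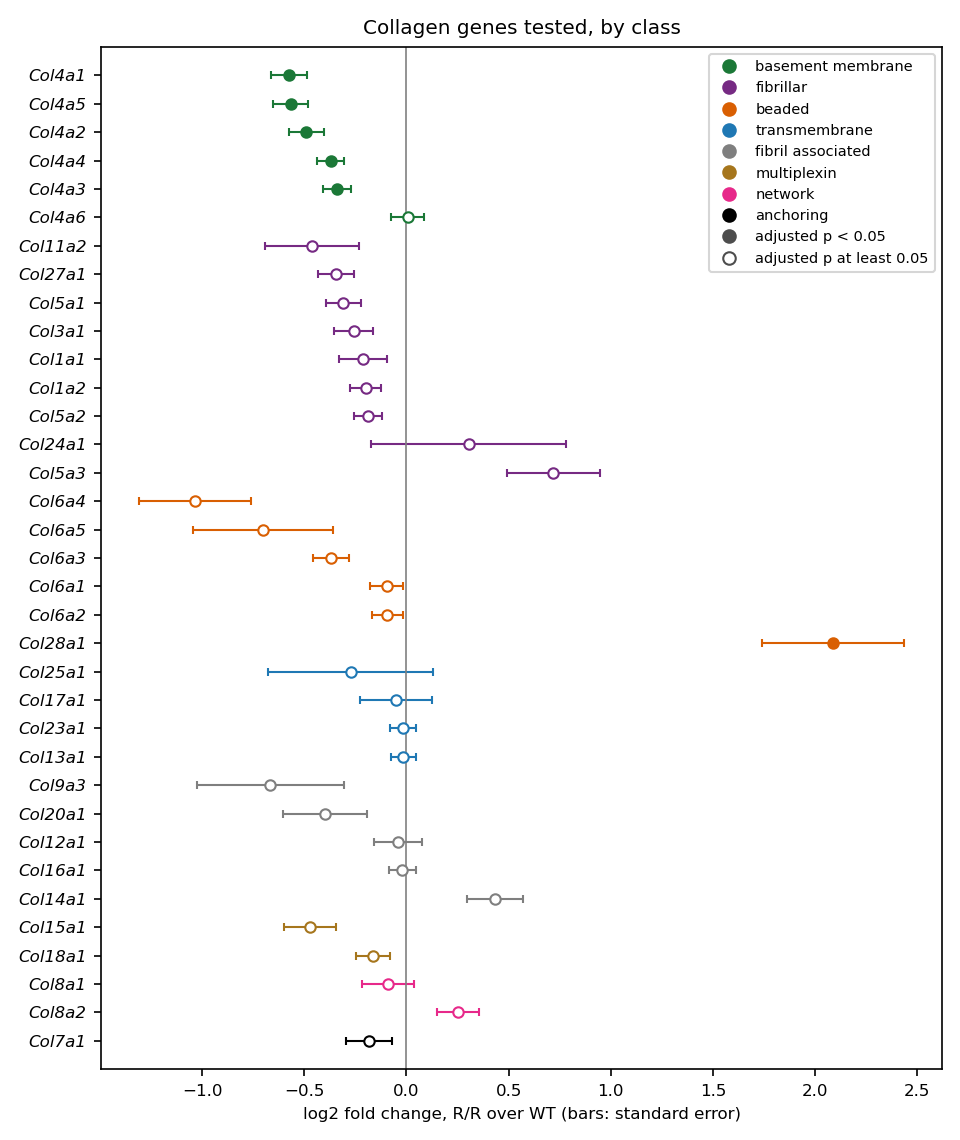
Log2 fold change of each of the 35 tested collagen genes in R/R relative to WT lungs (x axis), with its standard error as a bar, grouped and coloured by class; filled points passed an adjusted p of 0.05 in edgeR. The filled points are the 5 type IV genes Col4a1 to Col4a5, between -0.57 and -0.34, and Col28a1 at 2.09.

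Collagen genes together took 0.890%, 0.807% and 0.881% of all counts in the R/R lungs and 1.04%, 1.15% and 1.09% in the WT lungs. The lungs of the 2 genotypes did not overlap in this share. Most of the gap lay in the basement membrane class, which took 0.407% ± 0.0201 of all counts in R/R lungs and 0.576% ± 0.0551 in WT lungs (SD, n = 3 each). Fibrillar genes took 0.278% ± 0.0272 and 0.326% ± 0.0318. Within the collagen counts alone, the basement membrane class made up 47.4% ± 2.44 in R/R and 52.8% ± 3.76 in WT lungs (SD, n = 3 each), and these shares overlapped, since WT replicate 3 (48.4%) lay below R/R replicate 2 (49.3%). In bulk tissue, fewer cells that make collagen and less collagen RNA per cell cannot be told apart.

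The type IV genes were the class with the most calls. Col4a1 encodes a chain that joins with the Col4a2 product in the network found in nearly all basement membranes. Its level was 1756, 1617 and 1615 CPM in the R/R lungs and 2444, 2762 and 2214 CPM in the WT lungs. All R/R lungs lay below all WT lungs, with means of 1663 ± 80.8 and 2473.5 ± 275 CPM (SD, n = 3 each). In the fit Col4a1 fell by 0.57 on the log2 scale (standard error 0.09, adjusted p = 0.0111, edgeR), a level 32.8% lower in R/R lungs. Col4a2, its partner, was at 1547, 1390.0 and 1329 CPM in R/R lungs and at 1967, 2189 and 1841 CPM in WT lungs. It fell by 0.49 on the log2 scale (standard error 0.09, adjusted p = 0.02015, edgeR), again without overlap.

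Col4a3, Col4a4 and Col4a5 encode the chains of another network, which is prominent in the basement membranes of the alveolus and of the kidney glomerulus. Col4a3 was at 403, 427 and 383 CPM in R/R lungs and at 513, 544 and 478 CPM in WT lungs (log2 fold change -0.34, standard error 0.07, adjusted p = 0.0341, edgeR). Col4a4 lay within a narrow band in R/R lungs, at 352, 348 and 346 CPM, and at 448, 488 and 415 CPM in WT lungs (log2 fold change -0.37, standard error 0.07, adjusted p = 0.0235, edgeR). The R/R lungs were below the WT lungs for both genes. Col4a5 showed the larger fold of the 3, with 223, 206 and 190.2 CPM in R/R lungs and 281, 345 and 291 CPM in WT lungs (log2 fold change -0.57, standard error 0.09, adjusted p = 0.0104, edgeR). Its lungs did not overlap either.

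Col4a6 encodes the chain that pairs with the Col4a5 product in basement membranes such as those of smooth muscle. It was at 33.2, 32.6 and 30.8 CPM in R/R lungs and at 29.5, 32.6 and 34.1 CPM in WT lungs, and the 2 genotypes overlapped (log2 fold change 0.01, standard error 0.08, adjusted p = 0.987, edgeR). Its level was far below that of its neighbour: the ratio of Col4a5 to Col4a6 in TPM, a level corrected for gene length, was 7.97, 7.52 and 7.33 in R/R lungs and 11.3, 12.6 and 10.1 in WT lungs. The ratios did not overlap, and an exact two-sided permutation test gave p = 0.1, the smallest that 3 lungs against 3 allow, or 0.367 after Benjamini-Hochberg adjustment over the 11 chain ratios compared. Since p cannot be smaller in this design, the test could not have called any ratio, however far apart the lungs lay. It therefore cannot decide whether the difference between genotypes was another one for Col4a6 than for Col4a5. The values show only that the ratio was lower in each R/R lung than in each WT lung.

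The ratio of Col4a1 to Col4a2 was 1.01, 1.03 and 1.08 in R/R lungs and 1.10, 1.12 and 1.07 in WT lungs (TPM ratio, exact two-sided permutation test, p = 0.2, adjusted 0.367). That of Col4a3 to Col4a4 was 1.22, 1.31 and 1.18 in R/R lungs and 1.22, 1.19 and 1.23 in WT lungs (exact permutation test, p = 0.9, adjusted 0.990). Both ratios overlapped between genotypes.

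**Figure D2:**
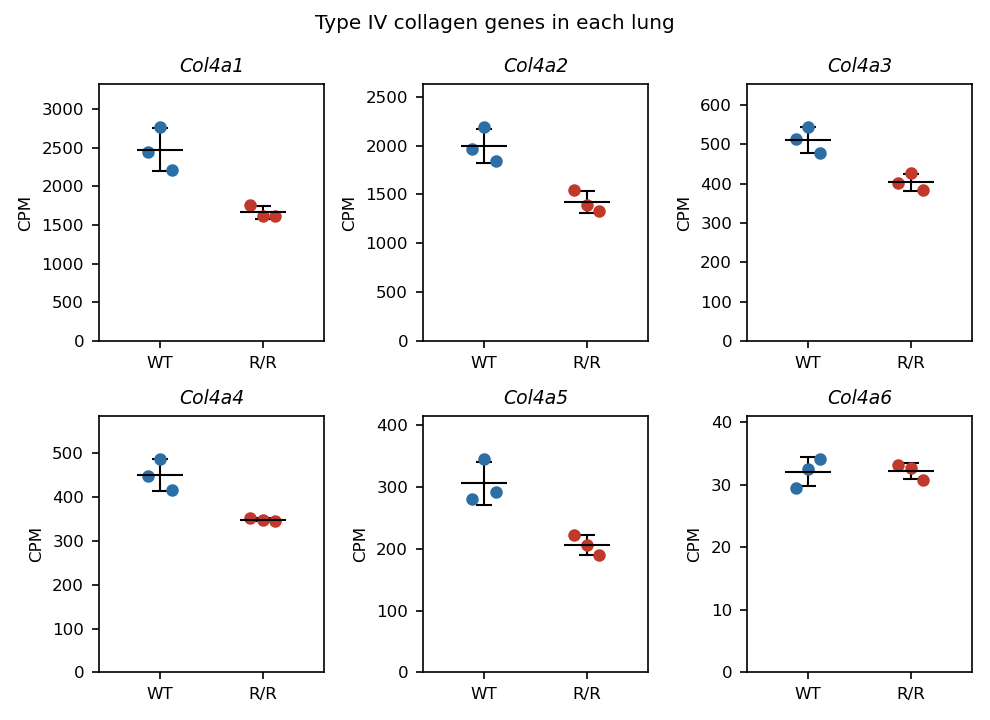
CPM of the 6 type IV collagen genes (y axes, each from 0) in the 3 WT and 3 R/R lungs; coloured points are single lungs, and black lines mark the mean and 1 SD. All R/R points lie below all WT points for Col4a1 to Col4a5, and the points of Col4a6 overlap between 29.5 and 34.1 CPM.

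The calls of the type IV genes rested on few lungs. Without R/R replicate 2, none of the 5 passed, with adjusted p of 0.0700 for Col4a1, 0.1005 for Col4a2, 0.0745 for Col4a3, 0.0955 for Col4a4 and 0.0611 for Col4a5 (edgeR). Col4a1 and Col4a5 passed in the other 5 cases in which a lung was left out. Col4a2 passed without R/R replicate 1 (0.0238) or WT replicate 3 (0.00503), and had adjusted p of 0.0665 without R/R replicate 3, 0.0670 without WT replicate 1 and 0.0674 without WT replicate 2. Col4a3 and Col4a4 passed only without WT replicate 3 (0.0101 and 0.00471), and had adjusted p of 0.0907 and 0.0534 without R/R replicate 1, 0.0958 and 0.0683 without R/R replicate 3, 0.120 and 0.0783 without WT replicate 1, and 0.1325 and 0.0851 without WT replicate 2. All log2 fold changes stayed negative, between -0.65 and -0.30. Without R/R replicate 2, 76 genes were called over the whole table, in place of 300.

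The 6 type IV genes lie in 3 pairs whose members face away from each other (GRCm38). Col4a1 (ENSMUSG00000031502.11, minus strand, 11198423 to 11312826) and Col4a2 (ENSMUSG00000031503.13, plus strand, 11312805 to 11449287) overlap by 22 bases on chromosome 8. Col4a4 (ENSMUSG00000067158.9, minus strand, 82448423 to 82586849) and Col4a3 (ENSMUSG00000079465.8, plus strand, 82586921 to 82722059) are 71 bases apart on chromosome 1. Col4a6 (ENSMUSG00000031273.16, minus strand, 141165403 to 141474076) and Col4a5 (ENSMUSG00000031274.16, plus strand, 141475385 to 141689234) are 1308 bases apart on chromosome X. In the first 2 pairs both genes were called lower, and in the third only Col4a5 was. The counting ignored strand, but the exons of Col4a1 and Col4a2 share 0.29% and 0.33% of their bases. Of the exon bases of Col4a3, 5.65% overlap the antisense transcript C430014B12Rik, which itself had 17 to 34 counts per lung.

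Start regions of the paired type IV genes other than Col4a3, which is not shown, and of Col28a1 read as follows.
Col4a1 (chr8:11312777-11313076, minus strand): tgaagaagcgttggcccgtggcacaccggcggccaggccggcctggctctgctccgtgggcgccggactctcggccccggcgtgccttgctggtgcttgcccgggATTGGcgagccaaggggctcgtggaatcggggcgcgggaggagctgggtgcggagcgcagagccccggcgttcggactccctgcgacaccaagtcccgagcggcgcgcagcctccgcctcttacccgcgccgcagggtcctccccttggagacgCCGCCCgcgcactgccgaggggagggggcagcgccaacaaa
Col4a2 (chr8:11312555-11312854, plus strand): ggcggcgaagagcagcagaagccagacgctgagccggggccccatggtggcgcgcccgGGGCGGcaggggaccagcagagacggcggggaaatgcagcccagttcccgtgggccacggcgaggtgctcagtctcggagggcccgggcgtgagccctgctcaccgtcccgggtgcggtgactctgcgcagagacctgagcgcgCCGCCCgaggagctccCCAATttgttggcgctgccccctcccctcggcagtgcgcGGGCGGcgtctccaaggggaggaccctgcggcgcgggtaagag
Col4a4 (chr1:82586800-82587099, minus strand): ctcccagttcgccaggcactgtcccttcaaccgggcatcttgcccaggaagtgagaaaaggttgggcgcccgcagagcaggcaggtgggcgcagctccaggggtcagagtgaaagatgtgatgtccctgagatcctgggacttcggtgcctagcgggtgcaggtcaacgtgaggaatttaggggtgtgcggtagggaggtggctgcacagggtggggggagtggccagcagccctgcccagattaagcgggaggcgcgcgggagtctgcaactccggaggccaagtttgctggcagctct
Col4a5 (chrX:141475169-141475468, plus strand): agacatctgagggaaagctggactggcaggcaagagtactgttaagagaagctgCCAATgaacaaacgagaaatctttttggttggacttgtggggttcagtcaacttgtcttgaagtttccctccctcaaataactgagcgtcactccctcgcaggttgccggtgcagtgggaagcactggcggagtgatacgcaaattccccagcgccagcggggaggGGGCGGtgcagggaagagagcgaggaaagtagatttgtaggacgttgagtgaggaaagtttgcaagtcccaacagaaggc
Col4a6 (chrX:141474027-141474326, minus strand): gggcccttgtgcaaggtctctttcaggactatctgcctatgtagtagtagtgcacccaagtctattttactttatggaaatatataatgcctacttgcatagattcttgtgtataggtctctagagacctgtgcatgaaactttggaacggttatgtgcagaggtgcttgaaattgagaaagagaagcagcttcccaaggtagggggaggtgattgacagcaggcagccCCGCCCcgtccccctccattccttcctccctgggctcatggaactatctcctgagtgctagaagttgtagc
Col28a1 (chr6:8192568-8192867, minus strand): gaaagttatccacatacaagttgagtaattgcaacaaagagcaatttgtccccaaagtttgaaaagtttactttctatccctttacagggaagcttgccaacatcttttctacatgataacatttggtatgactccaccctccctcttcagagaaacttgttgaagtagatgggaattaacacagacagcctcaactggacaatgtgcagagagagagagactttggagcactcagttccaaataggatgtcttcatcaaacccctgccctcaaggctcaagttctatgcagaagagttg

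Each window runs from 250 bases before to 50 bases after the annotated start and is taken from RefSeq on GRCm38.p6, 5′ to 3′ on the strand of the gene, and 35 of the 44 genes had such a window. The sequences are given because the paired genes start close together, and Col28a1 is set beside them as the gene that was called higher. Capitals mark a motif found on either strand, which is GGGCGG for the GC box, CCAAT for the box of that name and TATAAA for the TATA box. No motif overlaps another in these windows. The Col4a1 and Col4a2 windows have 78 bases in common. The Col4a1 window holds 1 GC box and 1 CCAAT box, and the Col4a2 window holds 3 GC boxes and 1 CCAAT box. The Col4a5 window holds 1 of each and the Col4a6 window 1 GC box. The letters searched are not in the Col4a4 or the Col28a1 window, and no TATA box letters are in any of the 6. Of all 32851 windows, 35.7% hold a GC box, 37.4% a CCAAT box and 13.6% a TATA box. The GC content was 74.0% for Col4a1, 73.7% for Col4a2, 63.3% for Col4a4, 52.7% for Col4a5, 48.3% for Col4a6 and 41.7% for Col28a1, beside a median of 52.7% over all windows.

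No fibrillar gene passed the adjusted threshold in edgeR. DESeq2 called Col5a1 and Col27a1 lower (adjusted p = 0.0265 and 0.0313) and Col5a3 higher (0.0335). The fit of edgeR without a filter on low counts also called Col1a1 and Col3a1 lower, but it called 1109 genes in all, in place of 300. Of 11 genes 9 were tested, 7 with a negative and 2 with a positive log2 fold change and a median of -0.21, and 6 were at an unadjusted p under 0.05. Col1a1 and Col1a2 encode the chains of type I collagen, the main fibril protein of the lung interstitium. Col1a1 was at 619, 575 and 748 CPM in R/R lungs and at 655, 711 and 884 CPM in WT lungs, with overlap (log2 fold change -0.21, standard error 0.12, adjusted p = 0.453, edgeR). Col1a2 was at 709.6, 686 and 810.1 CPM in R/R lungs and at 799.5, 841 and 894 CPM in WT lungs (log2 fold change -0.20, standard error 0.08, adjusted p = 0.257, edgeR). R/R replicate 3 was the highest R/R lung for both chains and reached into the WT range. The TPM ratio of the 2 chains overlapped between genotypes, at 1.66 ± 0.0822 in R/R and 1.68 ± 0.173 in WT lungs (SD, n = 3 each, exact permutation p = 0.9).

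Col3a1 encodes type III collagen, which forms thin fibrils together with type I. It was at 1129, 914 and 1028 CPM in R/R lungs and at 1088, 1229 and 1354.5 CPM in WT lungs, and the genotypes overlapped (log2 fold change -0.26, standard error 0.10, adjusted p = 0.237, edgeR).

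Type V chains set the diameter of the type I fibril. Col5a1 was at 149, 121 and 156 CPM in R/R lungs and at 166, 179 and 183 CPM in WT lungs (log2 fold change -0.31, standard error 0.09, adjusted p = 0.115, edgeR). Col5a2 was at 189, 167 and 184 CPM in R/R lungs and at 189.9, 212 and 214 CPM in WT lungs (log2 fold change -0.19, standard error 0.07, adjusted p = 0.219, edgeR). In both, every R/R lung lay below every WT lung, for Col5a2 by less than 1 CPM, and neither passed the adjusted threshold. Col5a3, the minor type V chain, went the other way on average, with 17.4, 9.03 and 15.55 CPM in R/R lungs and 7.41, 7.34 and 10.8 CPM in WT lungs (log2 fold change 0.72, standard error 0.23, adjusted p = 0.159, edgeR). R/R replicate 2 lay below WT replicate 3. Without WT replicate 3 its adjusted p was 0.0495.

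Col27a1, a fibrillar chain best known from cartilage, was at 34.5, 36.6 and 43.6 CPM in R/R lungs and at 49.5, 46.7 and 49.4 CPM in WT lungs. Every R/R lung lay below every WT lung (log2 fold change -0.34, standard error 0.09, adjusted p = 0.0806, edgeR), and without R/R replicate 3 the adjusted p was 0.0327. The other tested fibrillar genes were low: Col11a2 was between 2.27 and 3.004 CPM in R/R and between 2.81 and 4.01 CPM in WT lungs, and Col24a1 was between 0.598 and 1.39 CPM in R/R and between 0.468 and 1.21 CPM in WT lungs.

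The beaded class had 6 of 8 genes tested, 1 called higher and none called lower. Its 5 tested type VI chains all had negative log2 fold changes with a median of -0.37, and 0 were called by edgeR's quasi-likelihood test, with 2 at an unadjusted p under 0.05. With DESeq2, 2 of them, Col6a3 and Col6a4, were called lower. Type VI collagen is assembled from the Col6a1 and Col6a2 chains with another chain, usually that of Col6a3. Col6a1 was at 487, 457 and 498 CPM in R/R lungs and at 454, 525 and 564 CPM in WT lungs (log2 fold change -0.10, standard error 0.08, adjusted p = 0.658, edgeR). Col6a2 was at 336, 317 and 354 CPM in R/R lungs and at 321, 369.6 and 385 CPM in WT lungs (log2 fold change -0.09, standard error 0.08, adjusted p = 0.643, edgeR). Both overlapped between genotypes, and WT replicate 1 was the lowest of the 3 WT lungs for each.

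Col6a3 was at 339, 274 and 346 CPM in R/R lungs and at 386, 437 and 417 CPM in WT lungs. The genotypes did not overlap (log2 fold change -0.37, standard error 0.09, adjusted p = 0.0614, edgeR). The TPM ratio of Col6a3 to Col6a2 was 0.702, 0.601 and 0.679 in R/R lungs and 0.835, 0.823 and 0.753 in WT lungs, without overlap (exact two-sided permutation test, p = 0.1, adjusted 0.367 over the 11 ratios). That of Col6a1 to Col6a2 was 2.72 ± 0.0430 in R/R and 2.72 ± 0.0556 in WT lungs (SD, n = 3 each). Its size depends on the exon lengths used, 4380 bases for Col6a1 and 8326 for Col6a2.

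Col6a4 and Col6a5 encode alternative partners of the Col6a3 position and were near the lower limit of the test. Col6a4 was at 1.78, 1.43 and 2.18 CPM in R/R lungs and at 3.95, 4.53 and 2.58 CPM in WT lungs (log2 fold change -1.03, standard error 0.27, adjusted p = 0.0912, edgeR), and its adjusted p was 0.0227 without WT replicate 3. Col6a5 was at 1.28, 1.67 and 0.648 CPM in R/R lungs and at 1.70, 1.88 and 2.28 CPM in WT lungs. Neither gene overlapped between genotypes.

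Col28a1 (ENSMUSG00000068794.7, minus strand of chromosome 6, 7997808 to 8192617, GRCm38) encodes a collagen with von Willebrand factor A domains that is known mainly from peripheral nerve. Its counts were 91, 41 and 45 in the R/R mice and 14, 15 and 12 in the WT mice. This is 5.05, 2.45 and 2.65 CPM against 0.850, 0.828 and 0.703 CPM, so each R/R lung was above each WT lung, with R/R replicate 1 the highest. It rose by 2.09 on the log2 scale (standard error 0.35, adjusted p = 0.0158, edgeR). The log2 fold change was 1.67 without R/R replicate 1 (adjusted p = 0.0378), and the adjusted p was 0.0635 without WT replicate 1 and 0.0512 without WT replicate 2. Even in R/R lungs it was among the rarer collagen mRNAs, at 2.30 ± 1.01 TPM, rank 29 of the 44 genes, against 0.556 ± 0.0694 TPM and rank 33 in WT lungs (SD, n = 3 each).

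Beside Col28a1, a list of 12 Schwann cell and myelin genes had 7 tested members, 3 with a positive and 4 with a negative log2 fold change and 0 called (edgeR, 2 at an unadjusted p under 0.05). Its summed level was 809 to 915 CPM in R/R and 924 to 1001 CPM in WT lungs. Most of that sum came from Pmp22 and Prx, which are not restricted to Schwann cells. The other 5 genes, Sox10, Cdh19, Gfra3, Foxd3 and Kcna1, were too low to be tested. Sox10 was at 0.177 to 0.333 CPM in R/R and 0.304 to 0.442 CPM in WT lungs, and Cdh19 had 12, 10 and 5 counts in the R/R mice and 5, 1 and 5 in the WT mice. Foxd3 was at 0 counts in 3 of the 6 lungs. The part of nerve cells in the value of Col28a1 was not tested. The nearest tested genes on either side of Col28a1 were not called, with log2 fold changes of 0.02 for Mios (16605 bases away, adjusted p = 0.960, edgeR) and 0.54 for the pseudogene Gm9825 (14425 bases away, adjusted p = 0.678, edgeR).

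**Figure D3:**
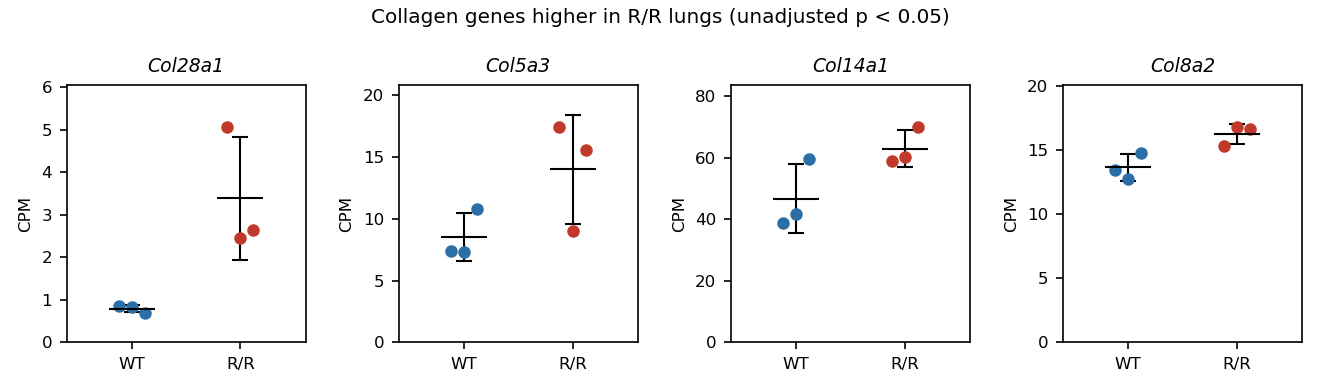
CPM of the 4 collagen genes with a positive log2 fold change and an unadjusted p under 0.05 (y axes, each from 0) in the 3 WT and 3 R/R lungs; coloured points are single lungs, and black lines mark the mean and 1 SD. Col28a1 lies between 0.703 and 0.850 CPM in WT and between 2.45 and 5.05 CPM in R/R lungs, Col8a2 also separates by genotype, and Col5a3 and Col14a1 overlap.

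The 4 transmembrane genes were all tested and none was called by edgeR (0 at an unadjusted p under 0.05; 0 by DESeq2). Their median log2 fold change was -0.03. Col13a1, a membrane collagen of cell adhesion sites, was at 98.3, 94.6 and 105 CPM in R/R lungs and at 98.8, 105 and 97.4 CPM in WT lungs (log2 fold change -0.02, standard error 0.06, adjusted p = 0.951, edgeR). Col17a1, a component of hemidesmosomes, was at 13.1, 9.68 and 11.6 CPM in R/R lungs and at 8.87, 12.0 and 14.8 CPM in WT lungs (log2 fold change -0.05, standard error 0.18, adjusted p = 0.937, edgeR). Col23a1 was between 106 and 114 CPM in R/R and between 106 and 119.9 CPM in WT lungs. Col25a1 was under 1.3 CPM in every lung. All 4 overlapped between genotypes.

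Among the fibril associated genes, which decorate the surface of fibrils, 5 of 9 were tested and none was called by edgeR (1 at an unadjusted p under 0.05). Col14a1, a regulator of fibril growth, was at 58.9, 60.3 and 69.9 CPM in R/R lungs and at 38.7, 41.7 and 59.5 CPM in WT lungs (log2 fold change 0.43, standard error 0.13, adjusted p = 0.154, edgeR). WT replicate 3 lay within the R/R range, and without it the adjusted p was 0.00299. DESeq2 called it higher with all lungs (adjusted p = 0.0334). Col12a1, Col16a1, Col20a1 and Col9a3 had log2 fold changes of -0.04, -0.02, -0.40 and -0.67, all with overlap.

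Of the network chains, Col8a2, which is known from the basement membrane of the corneal endothelium, was at 15.3, 16.7 and 16.6 CPM in R/R lungs and at 13.4, 12.7 and 14.8 CPM in WT lungs. The R/R lungs lay above the WT lungs (log2 fold change 0.25, standard error 0.10, adjusted p = 0.288, edgeR). Its partner Col8a1 overlapped between genotypes (log2 fold change -0.09). The multiplexins Col15a1 and Col18a1 sit beside basement membranes and release fragments such as endostatin. Col15a1 was at 19.1, 15.8 and 20.4 CPM in R/R lungs and at 22.8, 23.5 and 30.6 CPM in WT lungs, without overlap (log2 fold change -0.47, standard error 0.13, adjusted p = 0.105, edgeR; 0.0306 by DESeq2). Col18a1 had a log2 fold change of -0.17 and Col7a1, which forms the anchoring fibrils of epithelium, one of -0.18, both with overlap.

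The 9 genes that were not tested had at most 15 counts in any lung. Col9a1 had 0 counts in all 6 lungs, which allows up to 3 counts, or 0.182 CPM, in the library where 3 counts are worth the most, an upper limit for counting error only. Col9a2, Col11a1, Col2a1, Col10a1, Col22a1, Col26a1 and Col6a6 had between 0 and 15 counts per lung. The counts of Col19a1 were 6, 8 and 2 in the R/R mice and 1, 0 and 0 in the WT mice, and those of Col2a1, the main cartilage collagen, were 1, 1 and 0 in the R/R mice and 4, 5 and 8 in the WT mice. No fold is given at this depth.

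Per length, the order of the levels was led in both genotypes by Col4a1 and Col4a2, and this order depends on the exon lengths used. In WT lungs their means were 1139 ± 150 and 1038 ± 112 TPM (SD, n = 3), and in R/R lungs 739 ± 46.5 and 713 ± 63.3 TPM. The ranges of these 2 overlapped within each genotype, so their order was not resolved, and both stood clear of the next gene. The next group in WT lungs was Col3a1 at 427 TPM, Col6a1 at 402 TPM and Col1a1 at 391 TPM, whose neighbours overlapped in turn. Col1a2 followed at 233 TPM, then Col4a3, Col4a5, Col6a2 and Col4a4 between 176 and 146 TPM, with overlap between neighbours. In R/R lungs the same 10 genes held the first 10 places, with Col4a5 at rank 10 in place of 8 and Col6a1 at rank 3 in place of 4. Col3a1 and Col6a1 overlapped in both genotypes, and Col4a5 overlapped Col6a2 in WT and Col4a4 in R/R lungs. These changes of rank were therefore not resolved. Col4a6 was at 13.8 TPM in WT and 13.4 TPM in R/R lungs, the lowest of the type IV genes.

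**Figure D4:**
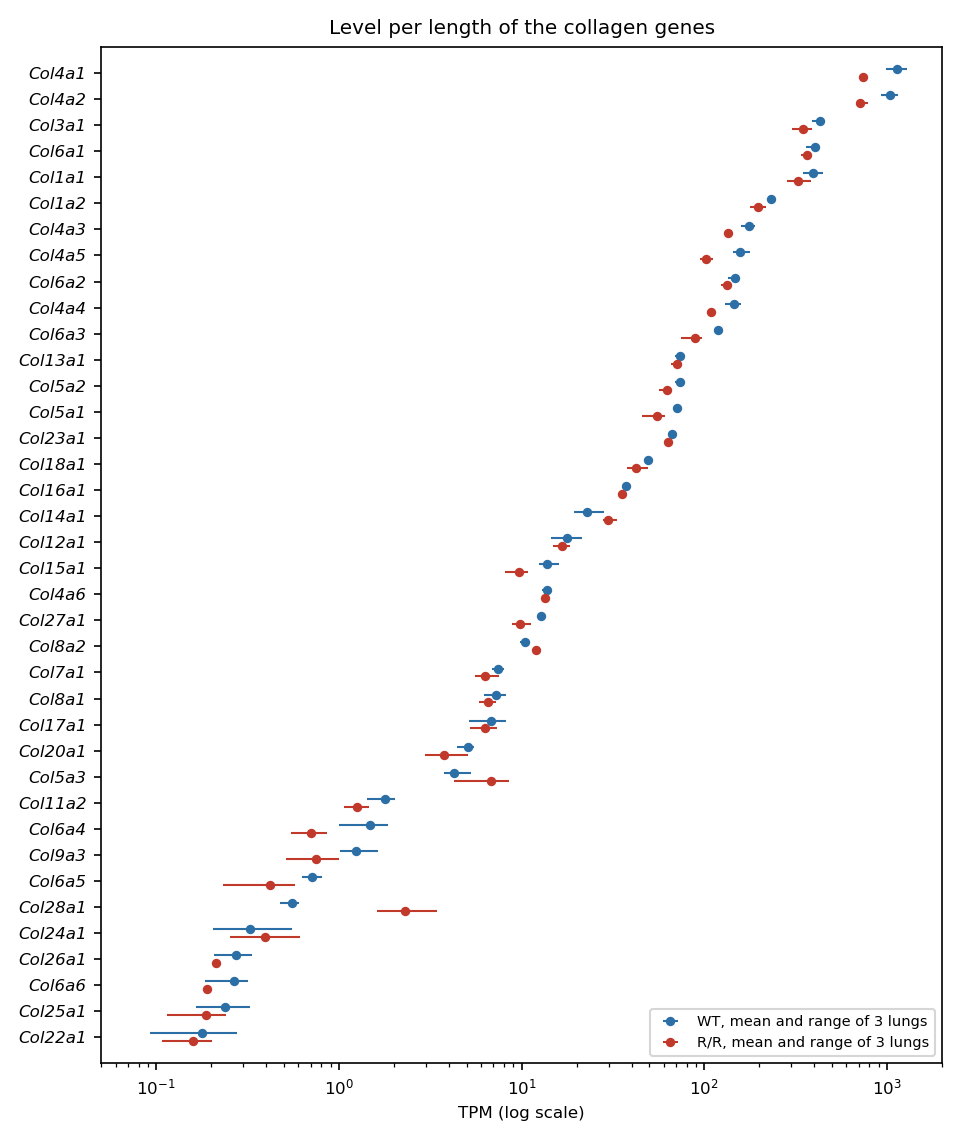
Mean TPM and range over the 3 lungs of each genotype (x axis, log scale) for the 38 collagen genes with at least 0.05 TPM in every lung, ordered by their mean in WT lungs. Col4a1 and Col4a2 lie at the top in both genotypes, and Col28a1 is the point furthest to the right of its WT value, at 2.30 against 0.556 TPM.

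The other structural genes of the basement membrane (laminins, nidogens, perlecan, agrin, peroxidasin and the Fras/Frem proteins, 19 genes) were compared with the type IV chains in the same fit. All 19 had negative log2 fold changes, 5 were called lower, and the median was -0.24. The R/R lungs lay below the WT lungs without overlap for 13 of them. Over all tested genes, 1.10% were called lower and 9.50% lay below without overlap. Nidogen 1 (Nid1), which links laminin to type IV collagen, was at 276, 265 and 266 CPM in R/R lungs and at 404, 418 and 347 CPM in WT lungs (log2 fold change -0.53, standard error 0.07, adjusted p = 0.00708, edgeR). Lama3, a laminin chain of epithelial basement membranes, fell by 0.47 (adjusted p = 0.00856), Pxdn, the peroxidase that crosslinks type IV collagen, by 0.37 (0.0315), Lamc1 by 0.35 (0.0248) and Hspg2 (perlecan) by 0.31 (0.0488) on the log2 scale (edgeR).

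**Figure D5:**
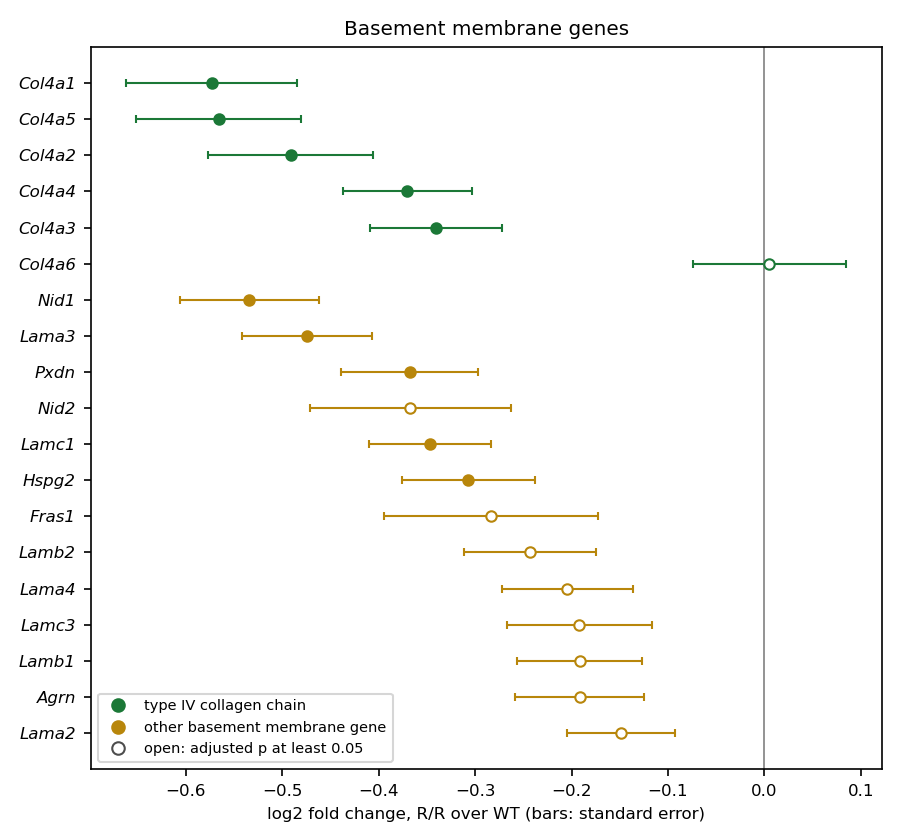
Log2 fold change with standard error (x axis) of the 6 type IV collagen genes (green) and of the 13 other basement membrane genes with an unadjusted p under 0.05 (gold); filled points passed an adjusted p of 0.05 in edgeR. All points but that of Col4a6 at 0.01 lie below 0, and the gold points lie between -0.53 and -0.15.

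Genes that make and handle collagen were read from lists in the order of the pathway. Of 15 genes for hydroxylation and glycosylation of the chains, 7 had positive and 8 negative log2 fold changes with a median of -0.01, and 0 were called (edgeR, 3 at an unadjusted p under 0.05); the smallest p-values belonged to P4ha3 (-0.81, adjusted p = 0.109) and Plod2 (-0.29, adjusted p = 0.179). Of 11 genes for folding and export, 2 were called, both lower. Serpinh1, the collagen chaperone HSP47, was at 345, 394 and 366 CPM in R/R lungs and at 537, 554 and 459 CPM in WT lungs (log2 fold change -0.49, adjusted p = 0.0158, edgeR), and Creb3l1, a transcription factor that acts on collagen secretion, fell by 0.45 (adjusted p = 0.0470, edgeR). Of 7 tested genes for propeptide cleavage 0 were called (edgeR, 2 at an unadjusted p under 0.05), and the smallest p-values belonged to Tll1 (log2 fold change 0.63, adjusted p = 0.0828) and Adamts2 (-0.27, adjusted p = 0.294).

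Of 6 crosslinking genes 1 was called, Loxl4, which rose by 0.90 on the log2 scale from a low level (9.21, 5.86 and 8.07 CPM in R/R and 4.25, 3.59 and 4.57 CPM in WT lungs, adjusted p = 0.0447, edgeR). The list's median was -0.25, and 5 of its 6 genes had negative log2 fold changes, 3 of them at an unadjusted p under 0.05 (edgeR). Of 16 tested genes that regulate fibril assembly, Podn (0.78, adjusted p = 0.00193) and Tnxb (0.38, adjusted p = 0.0447) rose and Sparc (-0.52, adjusted p = 0.0319) fell (edgeR). SPARC is a secreted protein that binds collagen, and its mRNA was at 2457, 2247 and 2013.5 CPM in R/R and 3087, 3666 and 2907 CPM in WT lungs. Of 12 collagen receptors Mrc2, an endocytic receptor for collagen fragments, fell by 0.51 (adjusted p = 0.0158), and of 20 tested genes of collagen degradation Mmp14, a membrane collagenase, fell by 0.34 (adjusted p = 0.0432, edgeR). The list of 20 TGF-beta ligands and readouts had 10 genes in each direction, with Ccn1 called higher (1.02, adjusted p = 0.00193) and Ltbp2 called lower (-0.34, adjusted p = 0.0402, edgeR). Over all 126 tested genes of these lists, the basement membrane list included, 4 were called higher and 11 lower, where 0.648% and 1.10% of all tested genes were, and the median was -0.07.

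Markers of the cells that make collagen were set beside these values, and their calls are to be read against the same 0.648% higher and 1.10% lower over all tested genes. Of 8 pericyte markers all had negative log2 fold changes, Pdgfrb and Gucy1a1 were called lower, and the summed level was 1109 to 1186 CPM in R/R and 1331 to 1522 CPM in WT lungs. Of 11 alveolar fibroblast markers 9 were negative, Mfap4, Slc7a10 and Scn7a were called lower, and the summed level was 5182 to 6248.5 CPM in R/R and 6632 to 7840.2 CPM in WT lungs. Of 10 adventitial fibroblast markers Fbn1 was called lower (summed level 1144 to 1187 CPM in R/R, 1187 to 1372 CPM in WT lungs), and of 8 smooth muscle markers 0 were called (edgeR, 1 at an unadjusted p under 0.05; 516 to 617 CPM against 542 to 763 CPM).

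Of 8 endothelial markers 7 were negative and 0 were called (edgeR, 1 at an unadjusted p under 0.05), with a summed level of 6119 to 6553.5 CPM in R/R and 6201 to 6915 CPM in WT lungs. The 8 alveolar type 1 markers, of the epithelial cell that lies on the alveolar basement membrane, had 5 positive and 3 negative values, Aqp5 called higher and a summed level of 5109.6 to 5688 CPM in R/R and 5277 to 5478 CPM in WT lungs. All 8 alveolar type 2 markers were positive and 0 were called (edgeR, 4 at an unadjusted p under 0.05). Of 9 mesothelial markers 8 were positive and Lrrn4 was called higher (324 to 449 CPM in R/R, 284 to 347 CPM in WT lungs). All 8 proliferation markers were negative, with Mki67 and Top2a called lower (43.0 to 53.0 CPM in R/R, 64.3 to 87.8 CPM in WT lungs). The part of any of these cell types in the collagen values was not tested.

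Chondrocyte markers had 7 of 12 genes tested and 0 called (edgeR, 0 at an unadjusted p under 0.05; 145 to 154 CPM in R/R, 141 to 157 CPM in WT lungs). Cardiac muscle markers varied from lung to lung, and their tissue source was not tested. Of 8 genes 7 were tested, all negative, and 0 were called (edgeR, 5 at an unadjusted p under 0.05). Their summed level was 61.8 to 120.4 CPM in R/R and 84.7 to 264 CPM in WT lungs. Myh6 was at 3.16, 14.5 and 29.7 CPM in R/R and 56.3, 98.3 and 1.76 CPM in WT lungs, and Nppa had no more than 1 count. Of 8 leukocyte markers 7 were negative, with a median log2 fold change of -0.45. By edgeR 2 were called lower, among them Cd79a (-0.67, adjusted p = 0.0491), and 6 had an unadjusted p under 0.05. The summed level was 5411 to 5697 CPM in R/R and 4016 to 5378.5 CPM in WT lungs. This sum includes Lyz2, which is also in the alveolar type 2 list. Lists for airway basal, club and ciliated cells, skeletal muscle and adipocytes held 0 called genes by edgeR, with 1 gene, of the adipocyte list, at an unadjusted p under 0.05. None of these lists was tested as a source of a collagen value.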

How the data were processed

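Whole-lung RNA (3 R/R mice, 3 WT mice) was sequenced as read pairs, and the sample labels gave each lung its genotype and number. Alignment by the authors used HISAT2 2.1.0 and the mm10 (GRCm38) genome, and the deposited table holds raw counts per gene from featureCounts 2.0.1, made without strand, multi-mapped or multi-overlapping pairs and without normalization. The column of WT replicate 3 was recorded as estimated counts because a header comment was misread, but the deposited values are whole-number counts and none was rounded. The sources differ on RNA extraction (Trizol or RNeasy), on the featureCounts version and on the test used (edgeR or DESeq2), and the sequencing is described as stranded. No deposited per-sample column was left unused (0).

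Symbols and coordinates came from a GENCODE annotation of the same build and matched 55141 of 56262 identifiers. Col21a1 was not analysed here. Genes were filtered with filterByExpr (minimum count 10), scaled by TMM and compared with edgeR 4.0.16 (quasi-likelihood test, R 4.3.3) with Benjamini-Hochberg adjustment over 17120 genes at a threshold of 0.05. The biological coefficient of variation was 8.62%. Standard errors were derived from the F statistic of each gene, CPM used TMM-scaled totals, and TPM used the gene lengths in the count table. These lengths count all annotated exon bases of a gene (6563 for Col1a1 and 12426 for Col1a2). TPM ratios between chains therefore depend on the annotation and are not measured ratios of molecules. Alternatives were DESeq2 1.42.0, limma 3.58.1 (voom), other scalings and filters, the replicate number as a block, and each lung left out. The code was tested on simulated counts. Libraries of one genotype differed by more than sampling noise (chi-square per degree of freedom 5.65 to 9.02). A single count was worth 0.0552 to 0.0607 CPM.

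The collagen genes, their classes and the other gene lists were chosen with earlier results of these data known. Genes were named by a fixed rule: collagen genes with an unadjusted p under 0.05 and the main chains of each class in full, and of the lists of collagen handling genes the called genes or else the 2 with the smallest p. Cell type markers named without a call were chosen after their values were seen. Some genes of the lists are not reported here.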

Additional observations from a re-analysis of the deposited data

How the results depend on the processing

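Col4a1 to Col4a5 and Col28a1 were called under all 7 alternatives that kept the 6 lungs. The number of collagen genes called higher and lower was 3 and 10 with DESeq2 and 3 and 12 without a filter, in place of 1 and 5, and DESeq2 called 541 genes of all and the fit without a filter 1109, in place of 300. Without a filter 43 collagen genes were tested in place of 35. The median log2 fold change of the beaded class, then over more genes, was -0.34 in place of -0.23. Same-numbered R/R and WT lungs had correlations of -0.0139, -0.0036 and -0.0148, and other pairs had values between -0.0223 and 0.0315. With 3 lungs a genotype, such values cannot show whether the numbers pair the mice. With a replicate block 2 collagen genes were called higher and 7 lower, of 446 genes called in all.

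With each lung left out in turn, between 65 and 621 genes were called (65 without WT replicate 1, 76 without R/R replicate 2, 110 without WT replicate 2, 117 without R/R replicate 3, 180 without R/R replicate 1 and 621 without WT replicate 3). Between 0 and 3 collagen genes were called higher, with 0 without WT replicate 1 or 2 and 3 without WT replicate 3. Between 0 and 6 were called lower, with 0 without R/R replicate 2, 2 without WT replicate 1 or 2, 3 without R/R replicate 1 or 3 and 6 without WT replicate 3. The median log2 fold change of the tested collagen genes lay between -0.30 (without R/R replicate 3) and -0.15. That of the beaded class lay between -0.46 (without WT replicate 1) and -0.21, that of the basement membrane class between -0.49 and -0.37, and that of the fibrillar class between -0.30 and -0.15. The log2 fold change of Col13a1, negative with all lungs, lay between -0.0582 and 0.0196 and was positive without R/R replicate 2 (0.0196) or WT replicate 2 (0.0182). That of Col17a1, also negative with all lungs, lay between -0.22 and 0.13 and was positive without R/R replicate 2 (0.0552) or WT replicate 3 (0.129). Leaving out a lung leaves 2 against 3 and also changes which genes pass the filter. Without R/R replicate 1, 2 or 3 or WT replicate 1, 37 collagen genes were tested. With all lungs, and without WT replicate 2 or 3, the number was 35, so the class medians are not all over the same genes. Beyond that, the cause of these changes was not tested. Of 286 values of 22 single collagen genes under 13 alternatives, 241 kept their direction and their side of the threshold, 23 passed it newly, 18 lost it and 4 changed direction.

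With 3 lungs a genotype, the exact permutation test cannot go below 0.1, and collagen genes under about 1 CPM rest on few counts. Whole-lung counts do not separate cell types. The edgeR p-values set each difference against the spread between these mice, estimated with information from other genes.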
